A study of Zea mays with 18 samples.

Results

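ZmNF-YA1 (Zm00001eb005690) is the maize gene that carries the transposon insertion of the line labelled nf-ya1. It was followed as 1 gene of the 36321 in the deposited table, chosen by its identifier and not by its values, across all 18 leaf libraries. The libraries came from the inbred line W22 and from nf-ya1, a single homozygous UniformMu insertion line in the W22 background that had been selfed. All plants were grown at 26 °C by day and 22 °C by night. Leaves of both lines were taken from unheated plants (0 h), from plants kept at 39 °C for 1 h (1 h, mild heat stress) and from plants that had recovered for 2 h (R2h), which makes 6 groups of 3 libraries. The treatment text of the labels names other times, 6 h of heating and 2 d of recovery. In the paper these belong to the severe heat test of whole plants. For expression profiles by qRT-PCR, its methods give a heating longer than 6 h before the 2 h of recovery. The RNA-seq is not named there. The times used here follow the sample titles, in which the heating time of the R2h plants is not stated. R2h therefore need not follow 1 h of heating.

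NF-YA proteins are the subunits of the nuclear factor Y (NF-Y) complex that recognise the CCAAT box, a short element found in many promoters. NF-YB and NF-YC proteins pair through their histone-like domains, and NF-YA joins this pair to form the DNA-binding trimer. Plants carry several genes for each subunit, and NF-YA transcripts of plants are known targets of the miR169 family. Uniform Mutator (Mu) lines carry transposon insertions, which can stop, truncate or lower the transcript of a gene depending on where they lie. The FPKM value (fragments scaled to transcript length and to the mapped fragments of the library) sums the fragments assigned to a gene, so it does not say whether a transcript runs through the insertion.

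The number of genes above 0 in a library ran from 24637 to 28580, and was higher in nf-ya1 than in W22 at every time with no overlap (26177 to 26534 in W22 and 27545 to 28580 in nf-ya1 at 0 h). This number depends on sequencing depth, which is not known here for the libraries. The FPKM of a library summed to between 804977 and 928910. As a check of the tissue, 21 genes annotated as chlorophyll a-b binding proteins, the light-harvesting proteins of leaves, summed to between 12859 and 90599 FPKM per library, with 18 to 21 of them above 0. The sum was higher in nf-ya1 than in W22 without overlap at all 3 times. It was 48009 to 53281 FPKM in W22 against 66038 to 69483 in nf-ya1 before heat stress, 12859 to 21261 against 25829 to 65925 after 1 h, and 50165 to 57028 against 74979 to 90599 at R2h. Its part in the genotype differences of ZmNF-YA1 was not tested. These 21 genes were taken here from a supplementary list of the study, which chose its lists on the same samples. The paper cites its first supplementary tables for genes called different between genotypes or growth conditions. A gap in the sum between genotypes can therefore follow from that choice, and is no separate evidence. In whole leaf tissue, fewer cells of a type and less RNA per cell cannot be told apart.

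ZmNF-YA1 was detected in all 18 libraries, those labelled nf-ya1 included. In W22 at 0 h, the 3 libraries held 23.12, 22.79 and 26.55 FPKM, with a mean of 24.2 ± 2.08 (SD, n = 3). In nf-ya1 at 0 h they held 13.01, 12.6 and 21.15 FPKM, with a mean of 15.6 ± 4.82 (SD, n = 3). Every nf-ya1 library lay below every W22 library at this time, and the third nf-ya1 library was the nearest to W22. At 1 h, the W22 libraries held 49.63, 43.66 and 39.09 FPKM (mean 44.1 ± 5.29, SD, n = 3). The nf-ya1 libraries at 1 h held 43.15, 36.09 and 27.03 FPKM (mean 35.4 ± 8.08, SD, n = 3). The groups overlapped at 1 h, since the highest nf-ya1 library lay above the lowest W22 library. At R2h, the W22 libraries held 11.35, 15.13 and 12.42 FPKM (mean 13.0 ± 1.95, SD, n = 3). The nf-ya1 libraries at R2h held 8.97, 12.89 and 9.38 FPKM (mean 10.4 ± 2.15, SD, n = 3), and the groups overlapped here too. The lowest ZmNF-YA1 value of all 18 libraries was thus 8.97 FPKM, so the label nf-ya1 did not stand for absent signal of this gene. The paper states that the mutant lacked ZmNF-YA1 transcripts, and by qRT-PCR it reports a level far below W22. FPKM sums the fragments assigned to the gene. Whether those in nf-ya1 came from an intact transcript was not tested. Directions between genotypes below are directions between libraries labelled W22 and libraries labelled nf-ya1.

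**Figure D1:**
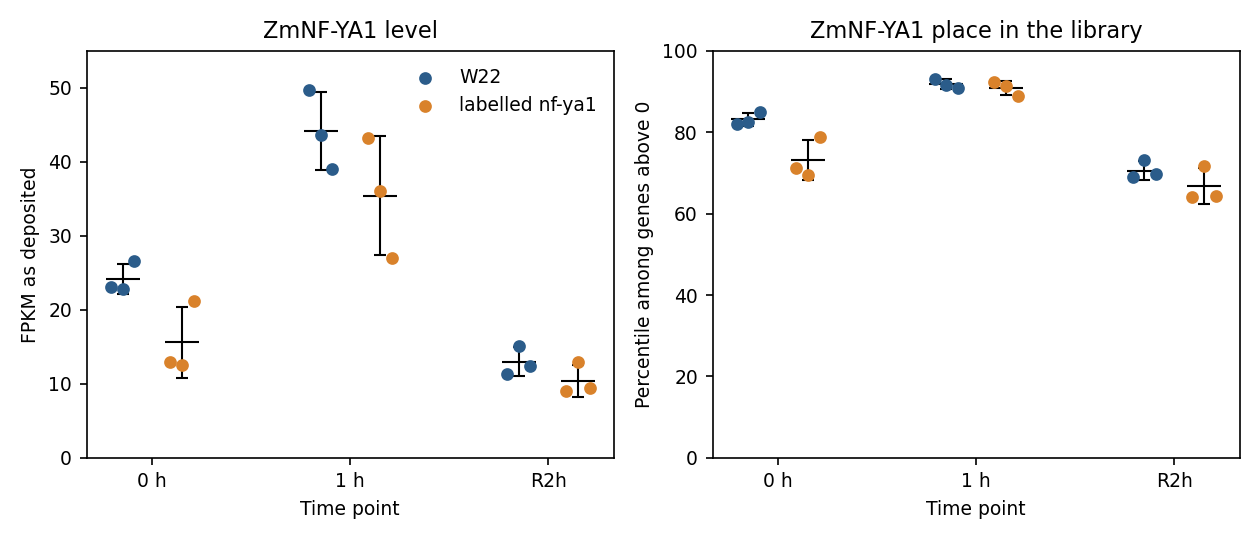
ZmNF-YA1 in each library by time and genotype, as FPKM (left, vertical axis) and as the percentile among genes above 0 of the library (right, vertical axis). Points are libraries and bars the mean ± SD of 3 libraries. W22 and nf-ya1 are apart at 0 h and overlap at 1 h and R2h, and both are highest at 1 h.

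From the highest to the lowest mean, the order of the groups was W22 at 1 h, nf-ya1 at 1 h, W22 at 0 h, nf-ya1 at 0 h, W22 at R2h and nf-ya1 at R2h. No group differed from its neighbour in this order at the threshold used for a single gene, an adjusted p of 0.01 or less in limma over all 22572 genes tested. The libraries of nf-ya1 at 1 h lay above those of W22 at 0 h, but only by the small gap between 27.03 and 26.55 FPKM. This difference was 0.51 ± 0.20 (SE) on the log2(FPKM + 1) scale, with an adjusted p of 0.0353 in limma. The next pair with libraries that did not overlap was W22 and nf-ya1 at 0 h, compared in detail below. For nf-ya1 at 0 h against W22 at R2h, whose libraries overlapped, the log2 difference was 0.22 ± 0.20 (SE), with an adjusted p of 0.403 in limma.

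Replicates of ZmNF-YA1 were further apart in nf-ya1 than in W22 at each time. The coefficient of variation of its FPKM was 8.62% at 0 h, 12.0% at 1 h and 15.0% at R2h in W22, against 30.9%, 22.8% and 20.7% in nf-ya1. Other genes also varied more in nf-ya1. Among genes whose group mean lay within 0.5 to 2 times that of ZmNF-YA1, the median coefficient of variation was 9.15%, 10.3% and 8.35% in W22 and 17.8%, 16.7% and 12.4% in nf-ya1, in the same order of times. At 0 h in nf-ya1, 75.4% of these genes had a smaller coefficient of variation than ZmNF-YA1, compared with 46.0% at 0 h in W22. At 1 h the shares were 64.0% in nf-ya1 and 61.1% in W22, and at R2h they were 76.2% and 82.0%, so that only at 0 h and 1 h was the share higher in nf-ya1. The difference in spread between genotypes was not tested.

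The first question was how far the insertion line differed from W22 in the level of the mutated gene. At 0 h, the mean of nf-ya1 was 64.5% of that of W22, and the log2 fold change was −0.64 ± 0.20 (SE). Its adjusted p of 0.0182 in limma did not pass 0.01, and the 95% interval ran from −1.07 to −0.20. Of all genes tested, 8.89% passed this threshold in the lower direction at 0 h and 25.3% in the higher. At 1 h, the log2 fold change of nf-ya1 against W22 was −0.33 ± 0.20 (SE, 95% interval −0.76 to 0.11), with an adjusted p of 0.206 in limma, where 18.9% of genes passed in the lower direction and 13.4% in the higher. At R2h it was −0.30 ± 0.20 (SE, 95% interval −0.73 to 0.14), with an adjusted p of 0.297 in limma, where 6.47% of genes passed in the lower direction and 7.59% in the higher. ZmNF-YA1 therefore passed the threshold at none of the 3 times taken singly. Without the third nf-ya1 library at 0 h, the log2 fold change at 0 h was −0.86 and its adjusted p was 0.00259 in limma. Without the second nf-ya1 library at 0 h it was −0.51 with an adjusted p of 0.0772 in limma, the weakest of the 18 omissions.

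Averaged over the 3 times, ZmNF-YA1 was lower in nf-ya1 by a log2 fold change of −0.42 ± 0.12 (SE), with an adjusted p of 0.00660 in limma and a 95% interval of −0.67 to −0.17. In this comparison 19.4% of genes passed in the lower direction and 26.4% in the higher. A two-sided exact permutation test of ZmNF-YA1 alone, with genotype labels exchanged within each time, gave p = 0.005 over 8000 arrangements, of which the smallest possible p is 0.00025. Within 1 time, 3 libraries against 3 cannot give a p below 0.1, and the exact permutation p was 0.1 at 0 h, 0.2 at 1 h and 0.3 at R2h. The call over the 3 times lay close to its threshold. It was lost when any 1 of 12 libraries was left out, with adjusted p values in limma up to 0.0160. It was kept without any 1 of the other 6, which were W22 0 h replicate 2, W22 1 h replicate 3, W22 R2h replicate 1, nf-ya1 0 h replicate 3, nf-ya1 1 h replicate 1 and nf-ya1 R2h replicate 2. Over all 18 omissions the log2 fold change stayed between −0.50 and −0.36.

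The second question was how ZmNF-YA1 changed with heat stress and recovery. In W22, it rose by 0.84 ± 0.20 (SE) on the log2 scale from 0 h to 1 h, or 1.83-fold in mean FPKM, with an adjusted p of 0.00235 in limma. No library at 1 h overlapped those at 0 h. This rise stood beside a lower FPKM of most genes. Of all genes, 8.41% passed in the higher direction and 40.5% in the lower, and the median gene was at −0.51. FPKM is relative to the library, and whether the amount of most transcripts fell was not tested. Relative to the median gene the rise was 1.35 on the log2 scale, and 92.6% of genes had a lower fold change. In nf-ya1, ZmNF-YA1 rose by 1.15 ± 0.20 (SE) on the log2 scale, or 2.27-fold in mean FPKM, with an adjusted p of 0.000103 in limma. Here 9.71% of genes passed in the higher direction and 60.2% in the lower, the median gene was at −0.92, and the rise relative to it was 2.07. The rise in nf-ya1 also reached a log2 fold change of 1, as did 7.62% of genes in that direction, but not without nf-ya1 1 h replicate 1 (0.997). The rise in W22 did not reach it on the deposited scale and did with median-ratio scaling (1.55) and quantile normalization (1.16). The SE was equal in both genotypes because the model shares 1 estimate of the spread over all groups. With only the groups compared in the fit, the SE was 0.11 in W22 (adjusted p 0.00140 in limma). In nf-ya1 the SE was then 0.27 (adjusted p 0.00966 in limma), so the rise there passed only narrowly. By qRT-PCR, the paper reports a rise of ZmNF-YA1 with heat in every line but nf-ya1. Its rise for W22 after 1 h is larger than the 1.83-fold found here. The FPKM rise in nf-ya1 thus differs from the paper's report, and the reason was not tested.

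From 1 h to R2h, ZmNF-YA1 fell in both genotypes. The log2 fold change was −1.69 ± 0.20 (SE, adjusted p 3.27e-06 in limma) in W22 and −1.67 ± 0.20 (SE, adjusted p 2.76e-06 in limma) in nf-ya1. The ratio of the mean at 1 h to that at R2h was 3.40 in each genotype. Genes that passed in the lower direction were 8.04% of all in W22 and 10.6% in nf-ya1, while 49.4% and 53.5% passed in the higher direction. The median gene lay at 0.66 in W22 and 0.76 in nf-ya1, and the log2 fold change of ZmNF-YA1 relative to it was −2.36 and −2.42. Both falls also reached a log2 fold change of −1, as did 5.73% of genes in W22 and 8.2% in nf-ya1.

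At R2h the transcript was below its 0 h level in W22. Unheated plants were sampled only at 0 h. In this comparison, recovery, the heating before it and the time of day cannot be told apart. The log2 fold change of R2h against 0 h was −0.85 ± 0.20 (SE) in W22, with an adjusted p of 0.00701 in limma, no overlap of libraries, and 3.3% of genes passing in the lower direction against 9.54% in the higher. The mean at R2h was 0.537 times that at 0 h, and 3.85% of genes had a lower fold change. In nf-ya1, the corresponding log2 fold change was −0.52 ± 0.20 (SE, 95% interval −0.95 to −0.08). The libraries of nf-ya1 at R2h and 0 h overlapped, the adjusted p of 0.0503 in limma did not pass, and 19.1% of genes passed in the lower direction and 12.5% in the higher. The W22 call did not hold without any 1 of 8 libraries, which were all those of W22 at 0 h and R2h, W22 1 h replicate 2 and nf-ya1 1 h replicate 2 (adjusted p up to 0.0314 in limma, with a log2 fold change of −0.96 to −0.77 over all 18 omissions). The rise in W22 at 1 h was lost without W22 0 h replicate 1 or 2 or W22 1 h replicate 1 (log2 fold change down to 0.75, adjusted p up to 0.0135 in limma).

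**Figure D2:**
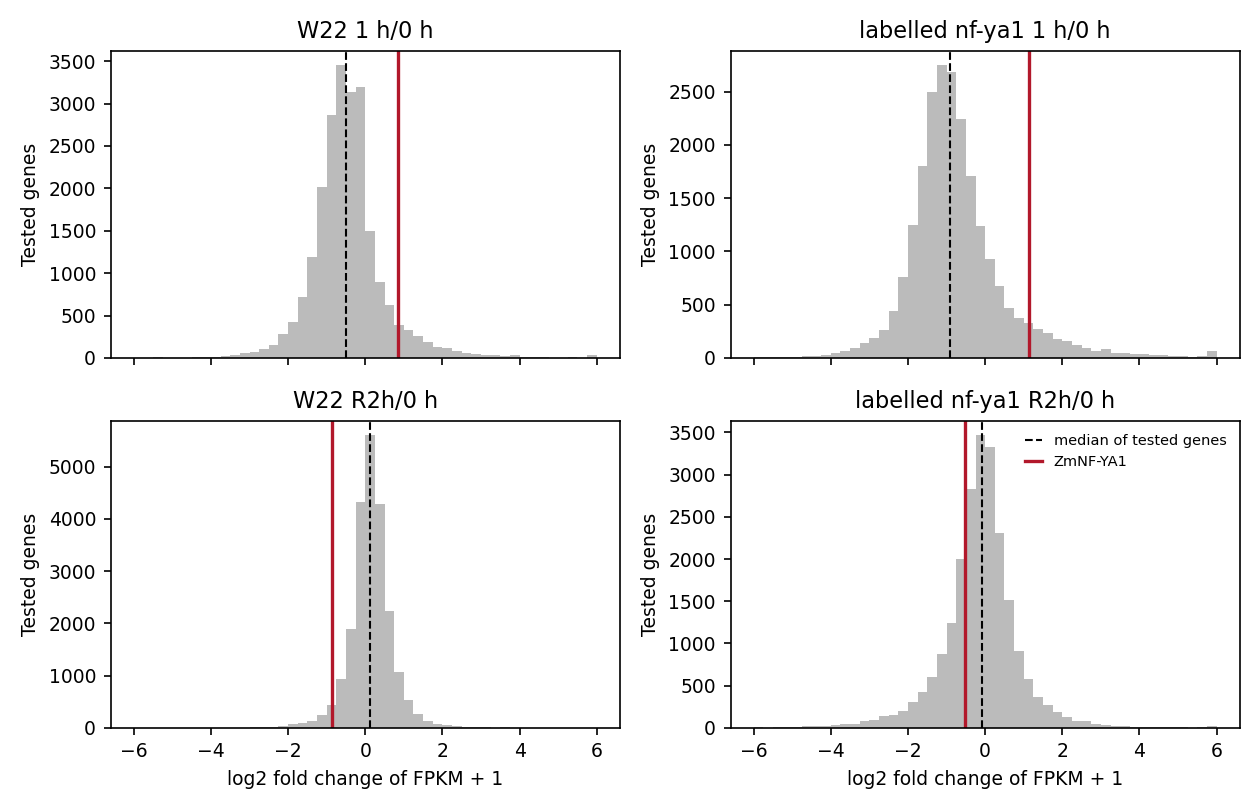
Number of tested genes (vertical axes) by log2 fold change of FPKM + 1 (horizontal axes, genes beyond 6 in either direction in the end bins) per genotype, from 0 h to 1 h (top) and to R2h (bottom), with the median gene (dashed line) and ZmNF-YA1 (red line). ZmNF-YA1 lies to the right of 92.6% of genes at 1 h in each genotype, and at R2h has 3.85% of genes below it in W22 and 27.3% in nf-ya1.

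An exact permutation test of the 3 times within a genotype, on ZmNF-YA1 alone, gave F = 79.8 in W22 (p = 0.00357, the smallest value that the 1680 arrangements can give) and F = 19.6 in nf-ya1 (p = 0.00714). The responses of the genotypes were then compared directly. The change from 0 h to 1 h was larger in nf-ya1 by 0.31 ± 0.29 (SE, 95% interval −0.31 to 0.92) on the log2 scale, with an adjusted p of 0.423 for the interaction in limma. The change from 0 h to R2h differed by 0.34 ± 0.29 (SE, 95% interval −0.28 to 0.95), with an adjusted p of 0.393 in limma. Neither difference passed, in a table where 5.09% of genes passed in the higher direction at 1 h and 3.94% at R2h, and 18.5% and 12.5% in the lower. The interval at 1 h still includes a rise larger in nf-ya1 by 0.92, and that at R2h a fall smaller in nf-ya1 by 0.95, on the log2 scale.

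The order of the 3 times in W22, lowest at R2h and highest at 1 h with no overlap of libraries, was shared by few genes. It was found for 554 genes, or 2.45% of those tested, ZmNF-YA1 among them, out of 8040 genes whose W22 libraries separated into any order. The opposite order, lowest at 1 h and highest at R2h, was the most frequent, with 5101 genes or 22.6%. In nf-ya1, 422 genes showed the order of W22 ZmNF-YA1 without overlap, and ZmNF-YA1 was not one of them because its libraries at 0 h and R2h overlapped.

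The place of ZmNF-YA1 among all genes of a library was also described without a fit. It comes from the same FPKM values and is no separate evidence. Among genes above 0, its mean percentile in W22 was 83.1 at 0 h (range 82.1 to 84.9), 91.8 at 1 h (90.7 to 93.0) and 70.6 at R2h (68.9 to 73.2). In nf-ya1 it was 73.1 at 0 h (69.5 to 78.8), 90.9 at 1 h (89.0 to 92.4) and 66.8 at R2h (64.2 to 71.8). Counted from the top, ZmNF-YA1 held ranks 3950 to 4745 in W22 at 0 h and 6070 to 8386 in nf-ya1 at 0 h, with no overlap. At 1 h its ranks were 1714 to 2314 in W22 and 2076 to 2846 in nf-ya1, and the genotypes overlapped. Its FPKM was 3.71 to 4.63 times that of the median tested gene in W22 at 0 h, 10.6 to 15.6 times at 1 h and 1.72 to 2.11 times at R2h. For nf-ya1 the ratio ran from 1.62 to 2.31 before heat stress, from 8.69 to 11.1 after 1 h and from 1.28 to 1.95 at R2h. Relative to the median gene, the genotypes thus overlapped at 1 h and R2h and were apart at 0 h. These ranks compare genes by FPKM, which is a level per transcript length.

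The scale of the libraries changed the size of these differences. When libraries were scaled by the median of gene ratios in place of the deposited scale, the mean of ZmNF-YA1 was 21.6, 65.8 and 9.89 at 0 h, 1 h and R2h in W22 and 11.3, 57.9 and 8.32 in nf-ya1. The level of nf-ya1 relative to W22 at 0 h was then 52.4%, and 51.1% with quantile normalization. At 1 h it moved the other way, from 80.3% as deposited to 88.0% by median ratios and 84.6% by quantiles. The log2 fold change at 0 h became −0.89 and −0.93 on these scales, and both passed in limma, with adjusted p values of 0.00164 and 0.00128. With median ratios, the level at 1 h was 3.05 times that at 0 h in W22, against 1.83 as deposited, and 5.11 times in nf-ya1, against 2.27. The interaction at 1 h was then 0.72, with an adjusted p of 0.0542 in limma, which did not pass. Under both scalings ZmNF-YA1 was lower in nf-ya1 at all 3 times and highest at 1 h in both genotypes.

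**Figure D3:**
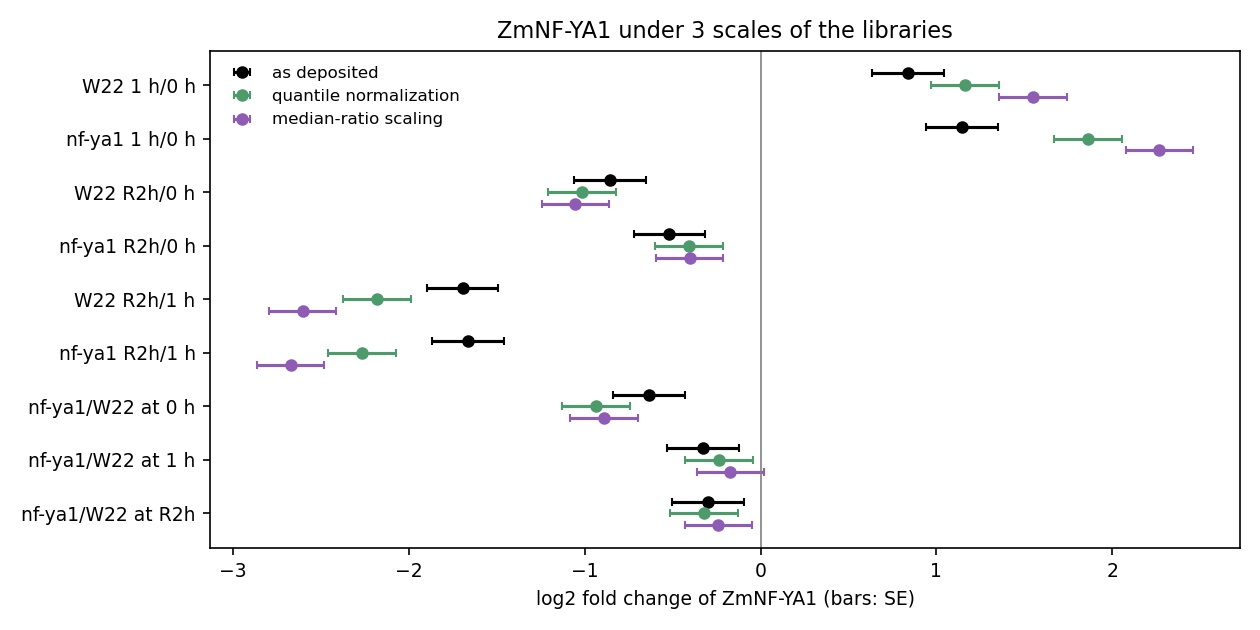
Log2 fold change of ZmNF-YA1 (horizontal axis, bars SE) in 9 comparisons (vertical axis) on the deposited scale, after quantile normalization and after median-ratio scaling. The changes with time that involve 1 h are larger on the latter scales, and nf-ya1/W22 at 0 h moves from −0.64 to −0.93 and −0.89.

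Other genes followed ZmNF-YA1 across the 18 libraries to different degrees. Likeness was measured as Pearson's r of log2(FPKM + 1) over the 18 libraries among 8888 genes with a mean of at least 10 FPKM, and is given as a description, since the libraries share 6 groups. For 81 genes r was 0.9 or higher, for 163 genes it was −0.9 or lower, and the median r was −0.56. On the deposited scale the most alike was Zm00001eb134540 (r = 0.95), with means of 34.3, 154 and 9.28 FPKM at 0 h, 1 h and R2h in W22 and 24.2, 151 and 3.57 in nf-ya1. Zm00001eb319350 followed (r = 0.95), with means of 147, 324 and 34.4 FPKM in W22 and 48.1, 231 and 17.8 in nf-ya1. These genes have the same order of times as ZmNF-YA1 in both genotypes, and the sources used here give them no name.

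The fifth gene by likeness was Zm00001eb057050 (r = 0.94), annotated as Autophagy-related protein 16, a protein that in other eukaryotes helps to attach ATG8 to the growing autophagosome membrane. Its level was close to that of ZmNF-YA1, with means of 19.7, 33.5 and 12.6 FPKM in W22 and 13.3, 22.7 and 10.6 in nf-ya1. At the other end, the least alike gene was Zm00001eb074890 (r = −0.97), with means of 15.3, 2.44 and 66.6 FPKM in W22 and 76.8, 4.10 and 101 in nf-ya1. The second least alike, Zm00001eb135810 (r = −0.96), is annotated as Rpn6, a lid subunit of the 26S proteasome, the complex that degrades ubiquitin-tagged proteins. Its means were 7.86, 3.02 and 16.1 FPKM in W22 and 17.8, 6.16 and 22.0 in nf-ya1, lowest at 1 h and highest at R2h, opposite to ZmNF-YA1. With median-ratio scaling the numbers at 0.9 or higher and −0.9 or lower were 602 and 53, the median r was 0.15, and the r of Rpn6 was −0.77. The ranking changed with this scaling, since only 1 of the 5 most alike and 1 of the 5 least alike genes stayed among the 5. Zm00001eb134540 moved to rank 12, Zm00001eb319350 to rank 29 and Rpn6 to rank 412, while Autophagy-related protein 16 kept rank 5 and Zm00001eb074890 rank 1.

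**Figure D4:**
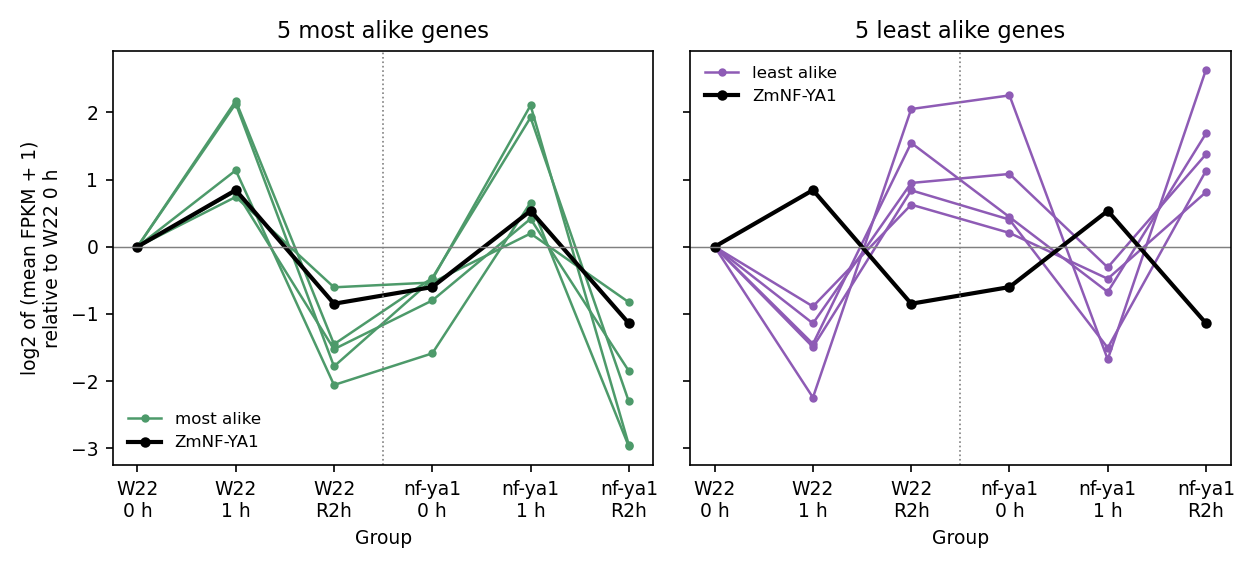
Group means of ZmNF-YA1 (black) with the 5 most alike genes (left) and the 5 least alike genes (right), as log2 of the mean FPKM + 1 relative to W22 at 0 h (vertical axis) for the 6 groups (horizontal axis). In each genotype the alike genes are highest at 1 h and lowest at R2h, as ZmNF-YA1 is, and the least alike genes are lowest at 1 h and highest at R2h.

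To look for a relation that the groups themselves do not set, each library's deviation from its group mean was used. For ZmNF-YA1, the largest deviations on the log2 scale were 0.45 in nf-ya1 0 h replicate 3, −0.35 in nf-ya1 1 h replicate 3 and 0.30 in both nf-ya1 1 h replicate 1 and nf-ya1 R2h replicate 2. They were compared with the deviations of the 6 genes that the study names with an identifier and treats as candidate targets of the factor. These are the asparagine synthetase gene ASN3, HUP26, a hypoxia-response gene of unknown function, the bZIP transcription factor gene bZIP100, the general regulatory factor gene GRF1, the jasmonoyl-isoleucine hydrolase gene JIH5 and NIP2c, a gene for a channel protein of the NOD26-like family. The study chose them on these samples. From promoter assays and expression, the paper reads ASN3, HUP26, bZIP100 and GRF1 as activated by the factor. For JIH5 and NIP2c it proposes repression. The largest deviations of ZmNF-YA1 were all in nf-ya1 libraries, where it is unknown whether the fragments come from an intact transcript. The correlations within groups therefore cannot decide on regulation by the factor. They were not computed for each genotype alone.

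Within groups (18 libraries), Pearson's r with ZmNF-YA1 was 0.64 for JIH5 (permutation p = 0.0656, adjusted over the 6 relations 0.157), and Spearman's rho was 0.55 (permutation p = 0.0881, adjusted 0.176). For NIP2c, r was 0.60 (permutation p = 0.0788, adjusted 0.157) and rho 0.59 (p = 0.0728, adjusted 0.176). Both genes tended to be high in the libraries where ZmNF-YA1 was high within its group, without passing the test. For ASN3, r was −0.46 (permutation p = 0.0540, adjusted 0.157) and rho −0.41 (p = 0.0858, adjusted 0.176). For GRF1, r was −0.50 (permutation p = 0.205, adjusted 0.308) and rho −0.43 (p = 0.218, adjusted 0.328). For HUP26, r was 0.33 (permutation p = 0.340, adjusted 0.408) and rho 0.23 (p = 0.478, adjusted 0.544), and for bZIP100 r was 0.10 (p = 0.785, adjusted 0.785) and rho 0.21 (p = 0.544, adjusted 0.544). None of the 6 relations passed an adjusted p of 0.05 by either measure, and 0 had an unadjusted permutation p below 0.05. With the groups left in, r over the 18 libraries was 0.14 for ASN3, 0.72 for HUP26, 0.81 for bZIP100, −0.53 for GRF1 and −0.73 for NIP2c. None was computed for JIH5. For ASN3 and NIP2c the sign was thus opposite to that within groups. At 0 h, the log2 fold change of nf-ya1 against W22 was 1.21 for JIH5 and 1.47 for NIP2c. It was −2.99 for ASN3, −2.75 for HUP26, −0.80 for bZIP100 and −0.49 for GRF1.

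Without the 2 libraries farthest from the median deviation of ZmNF-YA1, nf-ya1 0 h replicate 3 and nf-ya1 1 h replicate 1, r over the other 16 was 0.15 for JIH5, 0.44 for NIP2c, −0.38 for ASN3, −0.17 for GRF1, 0.0077 for HUP26 and 0.04 for bZIP100. The values for JIH5, GRF1 and HUP26 thus rested largely on these 2 libraries. JIH5 was also low, with a mean of 0.98 FPKM over the 18 libraries.

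**Figure D5:**
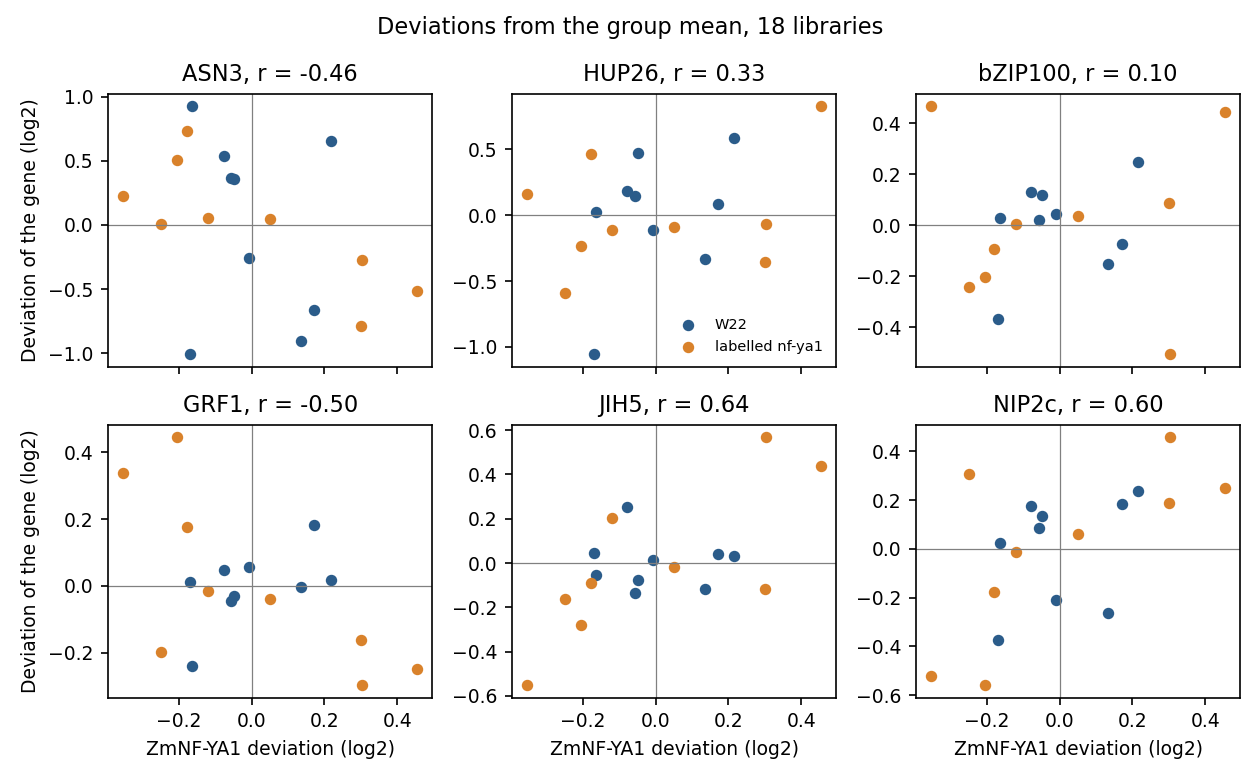
Deviation of each library from its group mean on the log2(FPKM + 1) scale, for ZmNF-YA1 (horizontal axes) and each of 6 genes (vertical axes). Each point is a library, coloured by genotype, and Pearson's r over the 18 libraries stands above each panel. The point farthest to the right is nf-ya1 0 h replicate 3 at 0.45.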

How the data were processed

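RNA-seq was run on 18 leaf libraries. Per the paper's methods, the authors sequenced them on the BGISEQ-500 platform and mapped filtered reads to the maize B73 V5 genome. The deposited table holds FPKM values with 2 decimals. The aligner and counter are not given in the sources used here. Read counts per gene were not analysed here, and low FPKM values did not resolve into whole reads, with 31.5% within 0.1 of a whole multiple where chance gives 20%. The counting error of a gene is therefore unknown, and precision rests on the spread between libraries, which the study calls biological replicates.

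Groups followed the sample titles. The test used log2(FPKM + 1), on which changes of low genes come out too small, for the 22572 genes that reached 1 FPKM in 3 or more libraries. A model with 1 mean per group was fitted in R 4.3.3 with limma 3.58.1 (empirical Bayes with intensity trend), with Benjamini-Hochberg adjustment across all genes tested. Each gene had 1 estimate of the spread, shared by all groups. A gene passed at an adjusted p of 0.01 or less. The fit was tested on simulated normal values with 1 spread per gene across all libraries. A spread that differs between genotypes was not simulated. Permutation tests and correlations (100000 resamples within groups) used SciPy 1.17.1 and NumPy 2.4.6 in Python 3.11.15, and figures Matplotlib 3.10.9.

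The gene, the lists and the tests were chosen with earlier results of these data known. The genes named were ZmNF-YA1, the 6 candidate targets, and those among the 5 most alike, the 5 least alike and the 5 highest within groups by r that carried an annotation, plus at most 2 unnamed identifiers in each direction. Annotations came from 1996 identifiers of a supplementary gene list held in part. The other NF-Y genes, the heat stress transcription factors, the zein, ribulose bisphosphate carboxylase and neighbouring genes were to be named from a RefSeq table, which pairs none of the identifiers with a name, and they were not analysed here. Chlorophyll a-b binding genes were taken from the supplementary annotation instead. The alternatives were pseudocounts of 0.1 and 0.01, no filter, a mean of at least 5 FPKM, median-ratio scaling, quantile normalization, only the groups compared, a replicate block, robust moderation, moderation without a trend, and each library left out.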

Additional observations from a re-analysis of the deposited data

Results flagged for a closer look

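Of the 7 genes named beside ZmNF-YA1 for their profile, 2 changed differently with time in the 2 genotypes by the interaction term of limma, where 5.09% of all genes passed in the higher and 18.5% in the lower direction at 1 h, and 3.94% and 12.5% at R2h. The count of 2 in 7 was the same at both times and was not tested against these shares. With 7 genes it is too small to be told apart from them. Zm00001eb319350, among the most alike, had a larger log2 change in nf-ya1 than in W22 by 1.11 from 0 h to 1 h (adjusted p 0.000114) and by 0.68 from 0 h to R2h (adjusted p 0.00511). It was lower in nf-ya1 at all 3 times, and its mean at 0 h was 48.1 FPKM in nf-ya1 against 147 in W22. For Zm00001eb074890, the least alike, the differences were −1.62 at 1 h (adjusted p 0.00230 in limma) and −1.58 at R2h (adjusted p 0.00401 in limma), with 76.8 FPKM in nf-ya1 against 15.3 in W22 at 0 h. With median-ratio scaling those of Zm00001eb074890 no longer passed (−1.15 and −1.24). Over the alternatives other than leaving out libraries, the adjusted p in limma ran from 2.44e-05 to 0.00125 and from 0.00198 to 0.0130 for Zm00001eb319350, and from 0.00197 to 0.0391 and from 0.00412 to 0.0343 for Zm00001eb074890, at 1 h and R2h. With 1 library left out, the calls at 1 h were kept, but that of Zm00001eb319350 at R2h was lost without W22 0 h replicate 1 or 2, W22 R2h replicate 1 or 3, nf-ya1 0 h replicate 2 or 3 or nf-ya1 R2h replicate 2 (adjusted p up to 0.0162 in limma), and that of Zm00001eb074890 at R2h without W22 0 h replicate 2 or 3, W22 R2h replicate 1 or nf-ya1 R2h replicate 2 (up to 0.0119). The interaction of ZmNF-YA1 itself did not pass at either time.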

How the results depend on the processing

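Apart from leaving out libraries, the alternatives (10, or 9 for the mean over the 3 times) gave the fold changes of ZmNF-YA1 the same direction, and most calls were kept. In nf-ya1 against W22 at 0 h, median-ratio scaling (−0.89) and quantile normalization (−0.93) brought the adjusted p in limma past the threshold. R2h against 0 h in W22 missed it without a filter on low values (−0.85, adjusted p 0.0107) and with the replicate number as a block (−0.85, adjusted p 0.0132), as did the genotype difference over the 3 times with the block (−0.42, adjusted p 0.0115). The study does not state that equal numbers pair the libraries. Deviations of libraries with equal numbers had correlations of −0.168 to 0.204, and only 2 of 45 pairs were above 0.1. With 3 libraries per group and no pairs of unequal numbers beside them, these values cannot exclude a pairing. With the block no other call of ZmNF-YA1 changed. With each library left out in turn, the log2 fold change ran from −0.86 to −0.51 at 0 h, from 0.75 to 0.92 for 1 h against 0 h in W22, from −0.96 to −0.77 for R2h against 0 h in W22 and from −0.50 to −0.36 over the 3 times. Among all genes of the table in place of those above 0, the mean percentile was 87.7, 94.4 and 78.5 in W22 and 79.2, 93.3 and 74.8 in nf-ya1 at 0 h, 1 h and R2h. Without nf-ya1 0 h replicate 3, left out after seeing the data, the within-group r turned to −0.020 for HUP26 and −0.34 for bZIP100. By median ratios and quantiles none of the 6 relations passed after adjustment, and 1 and 2 of them had an unadjusted Pearson p below 0.05. Depth per gene is not known, so the share of the spread that is counting error was not tested.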

Other observations

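By r of the deviations from the group means, 2 annotated genes were among the 5 highest of the 8888 genes compared. Zm00001eb313850, annotated with an AP2/ERF domain, the DNA-binding domain of a large plant transcription factor family, had r = 0.88 within groups (18 libraries, 0.83 with median-ratio scaling) but r = −0.74 over the 18 libraries with the groups left in. Zm00001eb413630, annotated as an amine oxidase, an enzyme class that oxidises amines, had r = 0.86 within groups (0.81 with median-ratio scaling) and −0.01 over the 18 libraries. Conversely, Autophagy-related protein 16 (Zm00001eb057050) had r = 0.94 over the 18 libraries and 0.32 within groups. These genes were picked for their high r among all genes compared, so the values are a description with no test.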
